A study of Mus musculus with 4 samples.

Results

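Actins are the proteins from which cells build filaments, and mammals make 6 of them from separate genes. The expression of all 6 was examined here in mouse embryonic basal epidermal cells with and without serum response factor (SRF): cytoplasmic β-actin (Actb) and γ-actin (Actg1), skeletal muscle α-actin (Acta1), cardiac α-actin (Actc1), and smooth muscle α-actin (Acta2) and γ-actin (Actg2). All probe sets that the platform annotation assigns to these symbols were taken, together with the array's β-actin control probe sets. These are 6 of the 18194 genes named on the array, and 12 of its 45101 probe sets: 5 for Actb, of which 3 were controls, 3 for Acta2, and 1 each for Actg1, Acta1, Actc1 and Actg2.

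The cKO embryos were SRF fl/fl and the het embryos SRF fl/+, and the submitters' design text calls the second group WT although it carries a floxed allele. Both groups carried K14-Cre, whose keratin 14 promoter is active in basal keratinocytes, and the ROSA26 YFP fl/fl reporter that marks cells in which Cre has acted. Cells were taken at E16.5 and sorted on α6 integrin, a basal surface protein, and on YFP. There were 2 cKO arrays (Ko_1210 and KO_1261) and 2 het arrays (het_1210 and het_1261), named as in the sample titles. Arrays with the same number are called the first pair (Ko_1210 and het_1210) and the second pair (KO_1261 and het_1261), although no label says what the numbers mark or whether samples were single embryos or pools, so p-values measure only the spread between these samples, which may be technical.

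Actin filaments assemble from monomers, and the pool of free monomers in turn controls transcription. Monomers hold the MRTF coactivators outside the nucleus, and when the pool is depleted MRTFs enter and act with SRF on genes with CArG boxes, the DNA element that SRF binds. Actin genes are themselves classical SRF targets. Keratinocytes use β- and γ-actin for the cortex, cell junctions and focal adhesions, while the 4 muscle actins are the main isoforms of striated and smooth muscle.

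Srf, the targeted gene, was lower on both cKO arrays. Its brighter probe set had signals of 47.9 and 80.4 on Ko_1210 and KO_1261, against 834 and 1108 on het_1210 and het_1261. Signals are MAS5 intensities on a linear scale, and every array had been scaled to the same trimmed mean of 500. The pairs also differed technically: poly-A spike-ins, control transcripts put into each RNA sample, gave 2.54 times the signal in the first pair that they gave in the second for cKO, and 2.43 times for het. Each actin difference is therefore also given within each pair, where there is 1 array per group and no test. Spike-ins were also lower in cKO within both pairs. The cKO to het ratio of the poly-A spike-ins was 0.90 within the first pair and 0.86 within the second. For the hybridization spike-ins, another set of controls, it was 0.81 and 0.88. The part of this shift in the actin differences was not tested. Basal keratinocyte markers were present on all arrays, with a summed signal over 9 genes of 207712 and 161738 in cKO and 219401 and 167397 in het.

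β-Actin and γ-actin, the actins of non-muscle cells, had lower signal in cKO than in het at each of their 6 probe sets, with a difference of -0.63 to -1.21 on the log2 scale. The 3 tested probe sets of the muscle actins Actc1, Acta1 and Acta2 showed differences between -0.27 and 0.13, and their cKO and het arrays overlapped. The other 3, of Acta2 and Actg2, lay below the filter on low signal. In sorted cells taken in bulk, fewer cells of a type and less RNA per cell cannot be told apart.

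**Figure D1:**
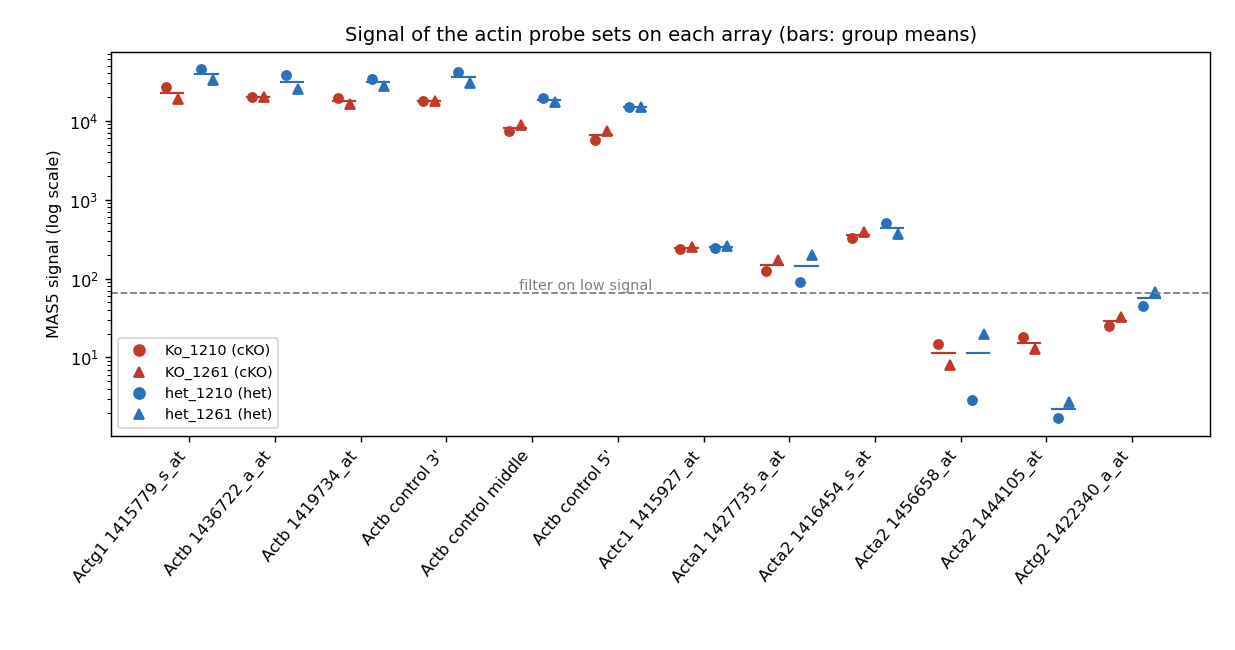
MAS5 signal on a log axis for the 12 actin probe sets, with cKO arrays in red left of het arrays in blue, circles for the first pair, triangles for the second pair and bars for group means. At the 6 probe sets of Actg1 and Actb both cKO arrays lie below both het arrays, and the Actc1 signals lie between 239 and 257 on all 4 arrays.

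CArG boxes were looked for on both strands in the 250 bases before the RefSeq start of each gene (build GRCm38.p6), since they are the element through which SRF acts. A promoter was at hand for 4 of the 6 genes, and not for Actb or Actg2. The box was found in those of Actg1, Acta1 and Actc1, and in that of Acta2 only with 1 mismatch in its inner A/T stretch. Boxes with 1 such mismatch numbered 2 for Acta2, 2 for Acta1 and 3 for Actc1, and 0 for Actg1. Of 32851 such windows over all genes 1.47% hold a CArG box, and 7.24% hold a box with 1 inner mismatch. The stretches around the exact boxes, and around the mismatched boxes of Acta2, which has no exact one, are shown with the 10 bases of the box in capitals, so that the element can be compared between a cytoplasmic actin and the muscle actins. A match is a description and not a bound site.
Actg1 (chr11:120348551-120348610, minus strand, box 90 to 81 bases before the start): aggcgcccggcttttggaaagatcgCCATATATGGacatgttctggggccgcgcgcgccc
Acta1 (chr8:123894814-123894873, minus strand, box 73 to 64 bases before the start): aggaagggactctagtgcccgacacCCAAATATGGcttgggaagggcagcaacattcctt
Actc1 (chr2:114052888-114052947, minus strand, box 47 to 38 bases before the start): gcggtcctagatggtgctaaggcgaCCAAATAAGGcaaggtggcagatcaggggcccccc
Acta2 (chr19:34255423-34255482, minus strand, mismatched box 84 to 75 bases before the start): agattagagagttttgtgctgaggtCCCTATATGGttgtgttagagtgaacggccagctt
Acta2 (chr19:34255374-34255432, minus strand, mismatched box 34 to 25 bases before the start): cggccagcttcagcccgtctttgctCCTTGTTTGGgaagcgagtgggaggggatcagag
The box was thus present before both Actg1, whose signal was lower in cKO, and Actc1 and Acta1, whose cKO and het signals overlapped. Actb, also lower in cKO, could not be searched without its promoter.

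Cytoplasmic γ-actin (Actg1) is, with β-actin, a main actin of epithelial cells. Its single probe set had signals of 26520 on Ko_1210 and 19005 on KO_1261, against 44873 on het_1210 and 32894 on het_1261. Both cKO arrays were below both het arrays, by a similar step within each pair: the log2 difference was -0.76 within the first pair and -0.79 within the second pair. The second pair minus the first, which restates this likeness, was -0.48 in cKO and -0.45 in het. In limma without a block the difference was -0.78 ± 0.33 (SE, n = 2 per group; unadjusted p = 0.0653, adjusted p = 0.99996), and with the number as a block -0.78 ± 0.12 (adjusted p = 0.000304). The suffix of the probe set (_s_at) marks probes shared by transcripts of more than one gene, so this signal may hold RNA of other actins, and the share was not tested.

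β-Actin (Actb), which concentrates at the cell edge and at contacts, was read by 5 probe sets, and at each of them both cKO arrays were below both het arrays. At the control probe set for the 5' end the signal was 5775 and 7359 on Ko_1210 and KO_1261, against 15107 and 14976 on het_1210 and het_1261. At the middle of the transcript it was 7491 and 8766 in cKO, against 19211 and 17322 in het. These are 2.62-fold and 2.56-fold higher values in het within the first pair, and 2.04-fold and 1.98-fold within the second pair.

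The control probe set for the 3' end of Actb had 18012 and 17867 in cKO, against 41509 and 29986 in het, 2.30-fold and 1.68-fold higher in het. The probe set 1419734_at had 19643 and 16319 in cKO, against 33876 and 27576 in het, 1.72-fold and 1.69-fold. The probe set 1436722_a_at had 20177 and 19786 in cKO, against 37974 and 25093 in het, 1.88-fold and 1.27-fold. All 5 thus put Actb lower in cKO within both pairs, but they disagreed on the size, and 1436722_a_at within the second pair gave the smallest difference.

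In limma without a block 0 of the 9 tested actin probe sets passed at an adjusted p of 0.05, as did 0% of the 22526 tested probe sets. At an unadjusted p under 0.05 there were 4 actin probe sets, all of Actb (the 3 controls and 1419734_at) and all lower in cKO, against 0.426% of all tested probe sets lower, and 112 probe sets passed in both directions together. With the number as a block 6 of the 9 passed, each lower in cKO, against 0.506% of all tested probe sets lower and 0.36% higher. These 6 were Actg1 and the 5 of Actb, where the differences ± SE were -1.21 ± 0.14 at the 5' control (adjusted p = 7.35e-07), -1.17 ± 0.13 at the middle control (7.43e-07), -0.98 ± 0.13 at the 3' control (1.6e-05), -0.77 ± 0.12 at 1419734_at (0.000397) and -0.63 ± 0.13 at 1436722_a_at (0.00797). The block fit has 1 residual degree of freedom and leans on a variance shared across probe sets, and without the trend in that variance 0 of the 9 passed. With the block 6 of 9 passed under a robust prior (0.253% of all lower and 0.133% higher), 5 of 9 after median centring (0.169% and 0.329%) and 2 of 12 with no filter (0.0311% and 0.0111%), each lower in cKO. Over all tested probe sets the block called 114 lower and 81 higher, and after median centring 38 lower and 74 higher. The probe sets of Actb read the same transcript, so they are not separate evidence.

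**Figure D2:**
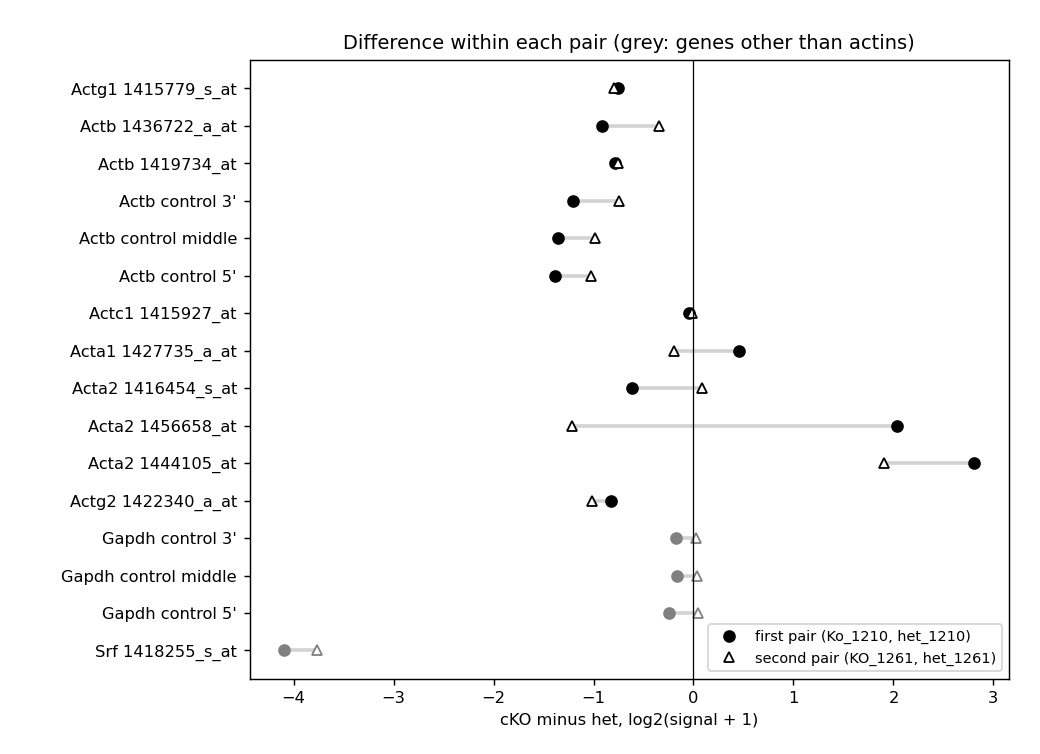
Difference cKO minus het in log2(signal + 1) within the first pair (filled circles) and within the second pair (open triangles) for the 12 actin probe sets in black and, in grey, the Gapdh controls and Srf. Actg1 and Actb lie left of 0 within both pairs, the Gapdh controls lie between -0.24 and 0.05, and Acta1, Acta2 1416454_s_at and Acta2 1456658_at have opposite signs within the pairs.

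Against the whole array, 6 of the 9 tested actin probe sets had both cKO arrays below both het arrays, against 10.4% of all tested probe sets, and none had both above, against 7.91%. Lower within both pairs were 7 of the 9, against 29.1% of all, and 5 of the 9 were over 1.5-fold lower within both pairs, against 1.55% of all lower and 0.537% higher by that much. The 6 were all of Actb and Actg1, and the 5 were 4 of Actb and that of Actg1. The 7 also held Actc1, which was lower by only -0.05 and -0.01 within the pairs. Since the probe sets of Actb read the same transcript, these are not counts of separate genes. Actb and Actg1 belong to the strongest signals of the array: all 6 of their probe sets were among the brightest 5% of tested probe sets by mean signal. Of these 1127 bright probe sets 3.64% had both cKO arrays below both het arrays, and 0.532% were over 1.5-fold lower in cKO within both pairs, which is 6 probe sets: 4 of Actb, that of Actg1, and 1 of Calm4, a calmodulin-like gene of the epidermis. This group of bright probe sets was set up after the actin values were seen.

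**Figure D3:**
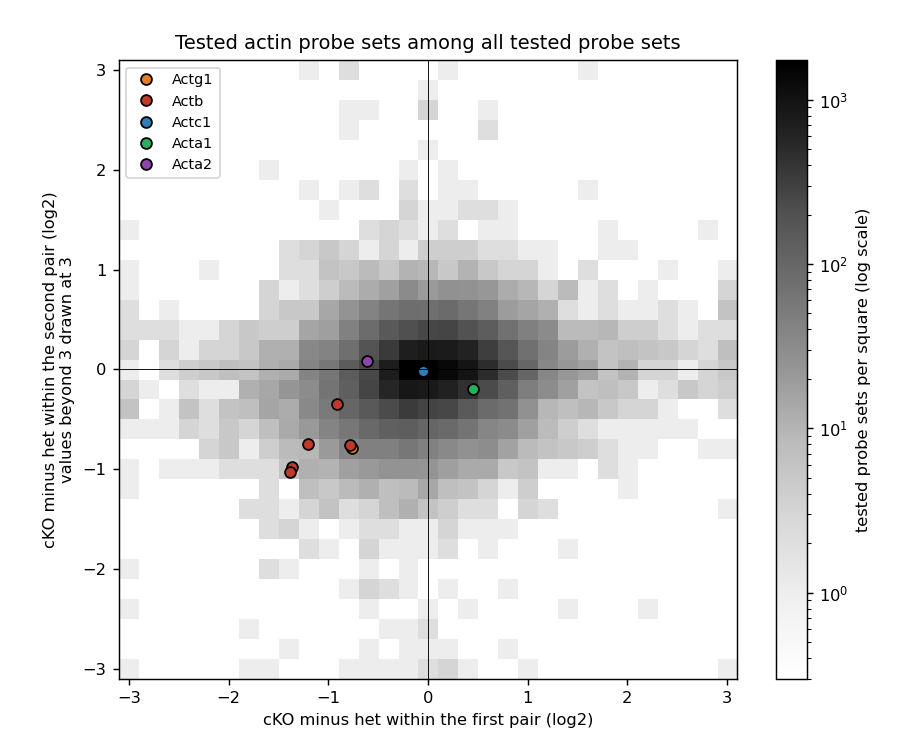
Difference cKO minus het (log2) within the first pair on the horizontal axis and within the second pair on the vertical axis, with all 22526 tested probe sets as grey squares on a log colour scale and the 9 tested actin probe sets as coloured points. The points of Actb and Actg1 lie at the lower left, and Actc1 lies at the centre of the cloud.

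The ends of the Actb transcript did not differ by the same factor. The 3' to 5' signal ratio of the β-actin controls was 3.12 and 2.43 on Ko_1210 and KO_1261, against 2.75 and 2.002 on het_1210 and het_1261. It was higher in cKO by 0.372 within the first pair and by 0.426 within the second pair, while the groups overlapped when pooled, at 2.77 ± 0.489 in cKO and 2.38 ± 0.527 in het (SD, n = 2 each). The difference of 0.399 between the group means was smaller than the spread within either group, and with 2 against 2 arrays an exact two-sided permutation test cannot give a p below 0.333. The same ratio of the Gapdh controls, which read a glycolytic enzyme, was 0.914 and 0.771 in cKO, against 0.871 and 0.782 in het. Its differences within the pairs were 0.043 and -0.011, of opposite sign, so the Actb ratio was higher in cKO within both pairs and the Gapdh ratio was not. Between the middle and the 5' end of Actb the ratio was 1.30 and 1.19 in cKO and 1.27 and 1.16 in het, so most of the gap lay between the 3' probe set and the other two. How far signal strength or RNA integrity takes part in this was not tested.

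Relative to Gapdh on the same array, both cytoplasmic actins were lower in cKO. The signal of Actg1 divided by the geometric mean of the 3 Gapdh controls was 0.911 and 0.792 on Ko_1210 and KO_1261, against 1.35 and 1.41 on het_1210 and het_1261. For the 5' control of Actb this ratio was 0.198 and 0.307 in cKO, against 0.454 and 0.640 in het, and for 1436722_a_at it was 0.693 and 0.824 in cKO, against 1.14 and 1.07 in het. In none of these did the groups overlap, and the ratio was 1.30-fold to 2.29-fold higher in het within the pairs over these 3 probe sets. The Gapdh controls themselves differed by -0.06 to -0.10 between the groups in limma, with standard errors of 0.30 to 0.34 without a block.

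**Figure D4:**
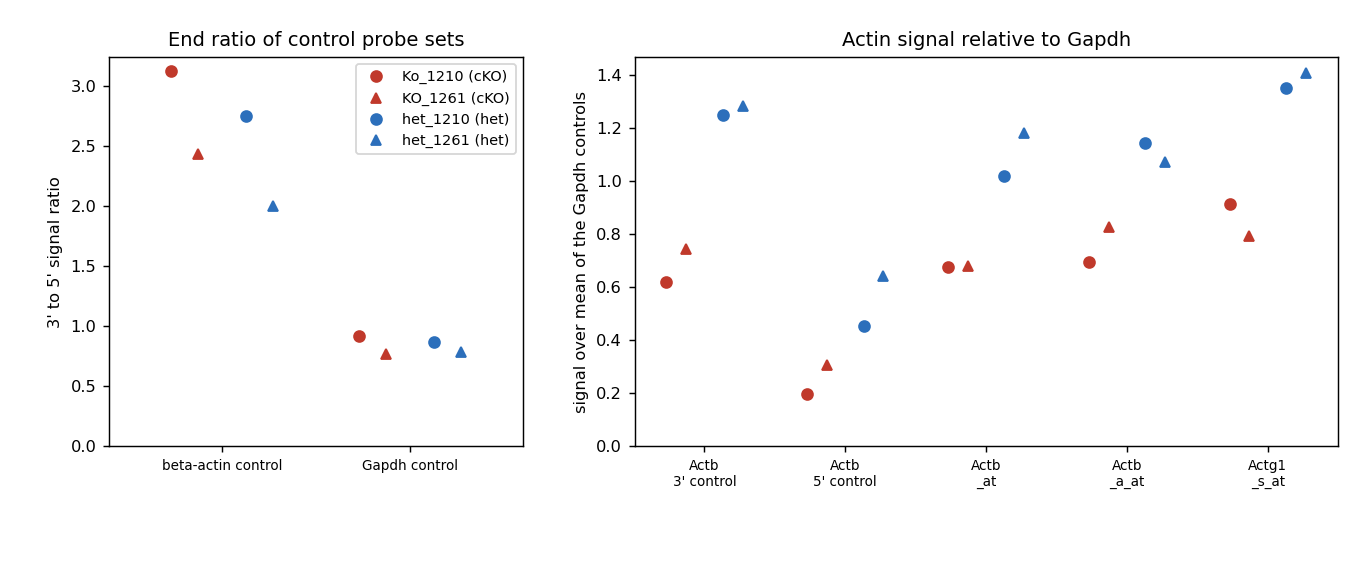
Left, the 3' to 5' signal ratio of the β-actin and Gapdh control probe sets on each array. Right, signal of Actb and Actg1 probe sets divided by the mean of the Gapdh controls on the same array. Red marks cKO and blue het, circles the first pair and triangles the second pair. The β-actin ratio is higher in cKO within each pair, and the actin to Gapdh ratios of cKO lie below those of het.

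Among the striated muscle actins, cardiac α-actin (Actc1), the actin of the heart and of embryonic skeletal muscle, hardly varied. Its signal was 239 on Ko_1210 and 254 on KO_1261, against 246 on het_1210 and 257 on het_1261. The groups overlapped, and the difference in limma without a block was -0.03, with a 95% interval of -0.83 to 0.77. That interval holds the difference seen for Actg1, while the interval with the block, -0.55 to 0.49, does not. Neither shows that Actc1 was unmoved, and the difference turned to 0.09 with median centring.

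Skeletal muscle α-actin (Acta1), the thin filament actin of adult skeletal muscle, differed more between the pairs than between the groups. It had a signal of 124 on Ko_1210 and 173 on KO_1261, against 90.5 on het_1210 and 198 on het_1261. The cKO values lay between the het values, with a difference of 0.46 within the first pair and -0.19 within the second pair, and 0.13 in limma (95% interval -1.23 to 1.49, and -0.56 to 0.82 with the block). The second pair was higher than the first by 0.469 in cKO and by 1.121 in het.

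Of 13 skeletal muscle markers on the array 9 lay below the filter, among them the regulators Myod1 and Myog. Their summed signal over the 13 genes was 1125 and 672 in cKO, against 1186 and 1036 in het. The tested ones with the largest differences were Tnni2, a fast troponin I, at -0.42 ± 0.46, and Actn2, the actinin of the Z disc, at 0.26 ± 0.53 (SE, without a block), and of the 4 tested 0 passed in either fit. Actn2 was at 0.66 within the first pair and -0.15 within the second pair. Of 8 cardiac markers 7 lay below the filter, and Tnnt2, cardiac troponin T, differed by -0.60 ± 0.50. The summed cardiac marker signal was 312 and 255 in cKO, against 369 and 294 in het. Whether the Acta1 and Actc1 signals come from muscle cells or from keratinocytes was not tested.

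Smooth muscle α-actin (Acta2), the actin of vascular smooth muscle and myofibroblasts, was read above the filter by 1 of 3 probe sets, 1416454_s_at, whose suffix again marks shared probes. Its signal was 331 and 389 on Ko_1210 and KO_1261, against 507 and 367 on het_1210 and het_1261. Only het_1210 stood above the rest, so the difference was -0.61 within the first pair and 0.08 within the second pair, and -0.27 in limma without a block (95% interval -1.08 to 0.55, and -0.73 to 0.20 with the block). The probe set 1444105_at read 17.9 and 12.9 in cKO, against 1.702 and 2.716 in het, and 1456658_at read 14.8 and 7.996 in cKO, against 2.85 and 19.8 in het. Both are far below the filter at a signal of 65.9, so these values are close to background and give no reliable direction. The first had both cKO arrays above both het arrays, with differences of 2.81 and 1.90 within the pairs.

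Smooth muscle γ-actin (Actg2), the actin of visceral smooth muscle, also lay below the filter by its mean. Its signal was 25.1 and 32.6 on Ko_1210 and KO_1261, against 45.3 and 67.0 on het_1210 and het_1261. Both cKO arrays were below both het arrays, with differences of -0.82 and -1.02 within the pairs. As for the Acta2 probe sets below the filter, such low signals give no reliable direction. Tested without the filter, the difference was -0.92 ± 0.72 without a block (95% interval -2.69 to 0.85) and did not pass with it (adjusted p = 0.857).

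Smooth muscle and pericyte markers were mixed beside these values. Of 12 on the array 8 were tested and 7 were below 0, with a median of -0.44, -0.69 within the first pair and 0.01 within the second pair, and 0 passed in either fit. Synpo2, a filament-binding protein of smooth muscle, differed by -0.68 ± 0.61 and Cspg4, the pericyte proteoglycan NG2, by -0.64 ± 0.36. Synpo2 was at -1.58 within the first pair and 0.22 within the second pair. The contractile markers Cnn1 and Myh11 were below the filter, as was Tagln. The summed signal was 2315 and 2732 in cKO, against 3180 and 2631 in het, so het_1210 was the highest array here as it was for Acta2. Dermal fibroblast markers, summed over 11 genes, were at 35804 and 37586 in cKO, against 48663 and 41235 in het. Of these 11 genes, 9 were below 0, beside 5945 of all 11054 tested genes. Without a block 0 of the 11 passed (adjusted p = 0.99996 for each of the 3 named next). With the block 3 passed as lower, against 0.606% of all tested genes: Twist2, a mesenchymal transcription factor, at -1.21, Vim, the mesenchymal intermediate filament protein, at -0.71, and Col3a1, a fibrillar collagen, at -0.62. Dpt, a dermal matrix protein, at -0.79 ± 0.31, did not pass. Pdgfra and Dcn went the other way, at 0.75 ± 0.50 and 0.06 ± 0.25 (SE, without a block). Dcn was the brightest of the list, at 21841 and 18828 in cKO, against 19907 and 19073 in het. Melanocyte markers had 5 of 5 tested genes below 0 and 0 past the threshold in either fit. Their summed signal was 784 and 742 in cKO, against 1441 and 756 in het, with Dct at -0.73 ± 0.42 and Tyr at -0.51 ± 0.75, both enzymes of pigment synthesis. The part of these other cells in the actin values was not tested. The fibroblast markers had a median difference of -0.97 within the first pair and -0.22 within the second pair. The 5 Actb probe sets ran from -0.79 (1419734_at) to -1.39 (5' control) within the first pair. Within the second pair they ran from -0.34 (1436722_a_at) to -1.02 (5' control). Each was closer to 0 within the second pair, but 1419734_at only slightly, at -0.76 against -0.79. Actg1 was at -0.76 within the first pair and -0.79 within the second pair.

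Other genes of the actin pathway were read from lists, with 1 probe set per gene, beside 11054 tested genes of which 5945 were below 0 with a median of -0.02. Without a block 0 of these genes passed. With the block 0.606% passed as lower and 0.253% as higher. Of 22 tested MRTF-SRF targets other than actins 20 were below 0, with a median of -0.40 (-0.17 within the first pair and -0.58 within the second pair), and 5 passed as lower with the block. These were Cnn2, a calponin that binds filaments, at -1.55, Fblim1, a filamin-binding adhesion protein, at -2.26, Wdr1, a cofactor of cofilin, at -0.83, Csrp1, a LIM protein, at -0.81, and the crosslinker Flna at -0.74.

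Of 15 tested actin monomer binding proteins and their partners 11 were below 0, with a median of -0.13. Wdr1, already counted among the MRTF-SRF targets, alone passed with the block. Twf2, a monomer-binding twinfilin, was at -0.46 ± 0.51. Actin folding and modification, with the CCT chaperonin and prefoldin that fold new actin, had 11 of 19 below 0, a median of -0.03 and 0 passing. The largest differences there were those of the actin oxidases Mical2, at -0.56 ± 0.54, and Mical1, at -0.49 ± 0.40. Actin-like and actin-related proteins outside the Arp2/3 complex had 6 of 6 tested genes below 0, a median of -0.21 and 0 passing, with Actl7b, a testis actin-like protein, at -0.50 ± 0.55 and Actr5, a subunit of a chromatin remodeller, at -0.32 ± 0.39. Among RPEL proteins and MRTF regulators, which sense monomers or act on MRTFs, 5 of 10 were below 0 with a median of 0.05. Srf alone passed, and as the targeted gene it says nothing about the other members. Fhl2, an SRF cofactor also among the MRTF-SRF targets above, was at -0.54 ± 0.46. No list gene other than these passed with the block, apart from the fibroblast markers given above. Of the genes named in this paragraph, Mical2, Actl7b and Fhl2 had differences of opposite sign within the pairs.

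The nearest patterns to the actins were sought among tested probe sets with 1 gene symbol, as the Euclidean distance between log2 profiles centred on their means over the 4 arrays. With 4 arrays, this describes likeness of values only. Nearest to Actg1 were Nupr1l, at a distance of 0.009, Fchsd1 at 0.041, Mpv17l at 0.070, the β-tubulin Tubb6 at 0.079 and the transcription factor Sox15 at 0.094. The Actb probe set 1419734_at lay at 0.185, at rank 43 among the tested probe sets. Nearest to Actb, by its brightest probe set outside the controls (1436722_a_at), were Palm at 0.039, Mgp at 0.062, Pik3cd at 0.075, Obsl1 at 0.096 and Wdr4 at 0.101. Actg1 lay at 0.368 from that probe set and 1419734_at at 0.308, so 1419734_at was nearer to Actg1 than to the other Actb probe set. Most of the nearest genes had low signal, unlike the actins. Over the 4 arrays Nupr1l read 72.3 to 171 and Palm 93.3 to 174, while Pik3cd read 12153 to 24494.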

How the data were processed

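The file held MAS5 signal, an array intensity for each probe set, as deposited; MAS5 is named in the submitters' processing notes, with no version. Per the labels' protocols, Trizol was used for extraction and a biotin 3' IVT method for labelling. Symbols were read from GEO's platform annotation and brought up to date by Entrez ID (34958 probe sets with 1 symbol).

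Values were taken as log2(signal + 1). Spike-in and repeat controls (48) were left out, and 16 controls for mouse transcripts, β-actin among them, were kept. Tests covered the 22526 probe sets whose mean log2 value exceeded the median of all, equal to a signal of 65.9, and used limma 3.58.1 in R 4.3.3 (lmFit, eBayes with trend). P-values were two-sided and adjusted by Benjamini-Hochberg across these probe sets, with 0.05 as threshold. The design had no block, and the title number as a block was an alternative. The code was tested on simulated data. Figures used matplotlib 3.10.9.

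Members, lists and tests were chosen with earlier results of these data known. Named are all actin probe sets, Srf, the Gapdh controls, list genes past the threshold in either fit, the 2 tested genes of each list with the largest difference, and the 5 genes nearest in profile. Some muscle markers below the filter and the fibroblast markers that were not lower in cKO are named beside these. So are the basal keratinocyte markers below 0 and some MRTF-SRF targets with opposite signs within the pairs. Lists covered actin-related functions, MRTF-SRF targets, β-actin mRNA binding, reference genes and markers of skeletal, cardiac and smooth muscle, fibroblasts, melanocytes and basal keratinocytes. No depth is defined for arrays, and their number limits the precision.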

Additional observations from a re-analysis of the deposited data

How the results depend on the processing

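The title numbers recur in both groups, but no label makes them a pairing. Same-numbered arrays deviated together from their group means (r = 0.755 across tested probe sets). With the replicate block the count of called probe sets was 195 in all and 6 among the actins, against 0 and 0 without it. It was 112 and 5 with the block and median centring, 87 and 6 with the block and a robust prior, and 19 and 2 with the block and no filter. With the block, and also with the robust prior, Actg1 passed at -0.775 and Actb at -0.772 (1419734_at), -0.627 (1436722_a_at), -0.976 (3' control), -1.206 (5' control) and -1.171 (middle control). With the block and median centring they passed at -0.653, -0.649, -0.854, -1.084 and -1.048, without 1436722_a_at. With the block and no filter the 5' and middle controls passed, at -1.206 and -1.171. With the block and no variance trend 0 passed. The fits with 1 array left out had no block and left 1 array in a group, so only their differences are given. All settings kept Actg1 (-1.015 to -0.535) and every tested Actb probe set below 0, with 1436722_a_at from -0.926 to -0.329 and, without het_1210, at that last value. Most settings could not have turned this sign. The block, the prior, the variance trend and the filter leave a difference unchanged. Leaving out 1 array cannot turn it where both cKO arrays lie below both het arrays. Median centring shifts all probe sets by the same amount, which took Actg1 from -0.775 to -0.653, too little to turn any of these signs. Quantile normalization could have turned the sign, and left Actg1 at -0.706 and 1436722_a_at at -0.491. Acta1 ran from -0.429 to 0.691 with 1 array left out and turned to -0.104 without KO_1261 and -0.429 without het_1210. Actc1 turned to 0.093 with median centring, with or without the block, 0.004 with quantile normalization and, with 1 array left out, lay between -0.075 and 0.016, the last without Ko_1210. Median centring moved the median of all tested probe sets from -0.007 to 0.115. Centring the end ratio was not run, since a ratio within an array cannot move, and its differences within the pairs, 0.372 and 0.426, lay close to 0.399. Probe sets below the filter gave values only in the settings without it.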

Other observations

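Proteins that bind β-actin mRNA carry it within the cell and affect its translation. Of 7 tested genes on that list, 2 were below 0, the median was 0.05 (0.11 within the first pair and 0.05 within the second pair), and 0 passed in limma in either fit. Igf2bp1, the zipcode binding protein that carries β-actin mRNA, was at 0.33 ± 0.29 (SE, without a block), with signals of 872 and 1125 in cKO, against 681 and 917 in het. Its relative Igf2bp3 was at 0.29 ± 0.25, with 3495 and 3303 in cKO, against 2400 and 3199 in het.

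Genes often used as references beside Actb had differences around 0. Of 12 tested, 7 were below 0 with a median of -0.03, and 0 passed in either fit. The largest differences were those of the transferrin receptor Tfrc, at 0.24 ± 0.54, and the mitochondrial enzyme subunit Sdha, at 0.16 ± 0.23. Basal keratinocyte markers had 3 of 9 below 0, a median of 0.09 and 0 passing. The median was 0.21 within the first pair and -0.05 within the second pair. The largest differences were those of Itgb4, the β4 integrin of hemidesmosomes, at 0.24 ± 0.24 and Trp63, the basal transcription factor p63, at 0.19 ± 0.25. The 3 below 0 were the keratins Krt5 at -0.12 ± 0.38, Krt14 at -0.07 ± 0.40 and Krt15 at -0.18 ± 0.34. Trp63 was at 0.43 within the first pair and -0.05 within the second pair.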
